A study of Capra hircus with 10 samples.

Results

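The miR-30 family was examined in the mammary gland of lactating Alpine goats. Its members were taken by name: every miRNA of the deposited count tables called miR-30 plus a letter from a to f, whatever the species prefix or arm. The rule found 12 miRNA among the 1804 listed, namely the 5p and the 3p miRNA of 6 precursors. The goats were at the peak of lactation, at about 48 ± 2 days after kidding, and had eaten a hay-based ration with 35% forage and 65% concentrate for 2 weeks. Control goats (n = 4, libraries L01, L04, L06 and L10) then went on eating freely, and food deprived (FD) goats (n = 6, library numbers L02, L03 and L05 plus L07 to L09) received no feed for the last 48 h before slaughter. All of them were milked and had free access to water. Each goat gave 1 small RNA library from about 150 mg of frozen gland, so the libraries are biological replicates of a piece of tissue that holds many cell types. The comparison asks which miRNA of the gland change when feed is withdrawn.

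A miRNA is a short RNA that guides a silencing complex to messenger RNA. It is cut from a hairpin precursor whose 2 arms give the 5p and the 3p miRNA, and the target is recognised mainly by the seed, bases 2 to 8 from the 5′ end. miRNA with the same seed form a family because they can bind the same sites. The miR-30 family is known from epithelial cells, where it restrains factors of the epithelial-to-mesenchymal transition, and from fat cells, where it favours differentiation. In the mouse mammary gland an excess of miR-30b is known to disturb lactation and to delay involution.

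The sequences of the 6 main miRNA are printed because the seed defines the family and the other bases tell the members apart. They are the mature sequences of the deposited tables, 5′ to 3′ in DNA letters, with the seed in capitals.
miR-30a-5p: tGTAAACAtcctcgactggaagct
miR-30d-5p: tGTAAACAtccccgactggaagc
miR-30e-5p: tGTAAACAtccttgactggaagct
miR-30b-5p: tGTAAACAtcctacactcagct
miR-30c-5p: tGTAAACAtcctacactctcagc
miR-30f-5p: tGTAAACAccctacactctcagc
All 6 share the seed GTAAACA and fall into 2 kinds by their second part. With positions counted from 1 at the 5′ end, miR-30d-5p differs from miR-30a-5p by T12C and miR-30e-5p from miR-30a-5p by C13T, each 1 base over the length compared. miR-30b-5p and miR-30c-5p share their first 18 bases, and miR-30f-5p differs from miR-30c-5p by T9C alone, so that it shares 8 first bases with every other member. By contrast, miR-30c-5p differs from miR-30a-5p at 5 of 23 positions. miR-30d-5p carried the name of the platypus miRNA in the tables, and the other 11 members had goat names.

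The 3p miRNA do not share the seed of the 5p miRNA and have 4 seeds among them. They are shown because several results below turn on them.
miR-30a-3p: cTTTCAGTcggatgtttgcag
miR-30e-3p: cTTTCAGTcggatgtttacag
miR-30d-3p: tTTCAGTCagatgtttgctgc
miR-30b-3p: cTGGGAGGtggatgtttacttc
miR-30f-3p: cTGGGAGGaggctgtttactct
miR-30c-3p: cTGGGAGAgggttgtttactc
miR-30e-3p differs from miR-30a-3p by G18A and has the same seed. miR-30d-3p begins 1 base later than these miRNA: set against miR-30a-3p with that shift, 2 of 20 bases differ, yet its seed is a different one. miR-30b-3p and miR-30f-3p share a seed, while miR-30f-3p differs from miR-30c-3p within the seed by A8G. The 3p miRNA thus repeat the 2 kinds seen in the 5p miRNA, with miR-30a, miR-30d and miR-30e on one side and miR-30b, miR-30c and miR-30f on the other.

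In the RefSeq gene table of goat assembly ARS1.2, where all 6 genes were found by symbol, they stand in 3 pairs of neighbours with 0 genes between the partners. MIR30E and MIR30C lie within NFYC, which codes for a subunit of the transcription factor NF-Y. MIR30B and MIR30D lie within a gene for a long non-coding RNA. MIR30F and MIR30A stand on the same chromosome as the latter, with 134 genes between MIR30D and MIR30F. Each pair joins 1 member of one kind with 1 of the other. This assembly is not the one the reads were mapped to, so it was used for names and order alone.

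The values are read counts per mature miRNA, and the total of a library ran from 4495512 to 9842009 counts. Levels are given as normalized counts, that is counts divided by a scaling factor of the library. The tissue was checked on miRNA known from single cell types. The epithelial list (miR-200 family, miR-141, miR-205 and others, 9 of 11 in the tables) took 3.47 to 3.72% of the counts in Control and 3.01 to 3.73% in FD libraries, while miR-122, the miRNA of liver, and miR-206 of muscle had mean normalized counts of 0.273 and 0.118. Muscle miR-133a-3p was present, with a mean normalized count of 835.

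The miR-30 family took a large share of the counts, most of it from miR-30a-5p, and was not ranked against other families. The 6 5p miRNA together took 12.2% ± 1.23 (SD, n = 4) of all counts in Control libraries and 11.0% ± 1.36 (SD, n = 6) in those of FD goats. Control libraries had shares of 11.9% (L01), 10.6% (L04), 13.5% (L06) and 12.7% (L10), and FD libraries ran from 8.42% (L05) over a median of 11.2% to 12.4% (L03). The groups overlapped. FD library L05 was the lowest of all, at 8.42% (95% Wilson interval 8.40 to 8.44%), and Control library L06 the highest, at 13.5% (13.5 to 13.6%). These intervals cover only the counting error of reads within 1 library. The same molecule can be read more than once after amplification, so for molecules they may be too narrow. The spread between goats was many times wider. The 6 3p miRNA together took 0.116 to 0.158% of a library.

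**Figure D1:**
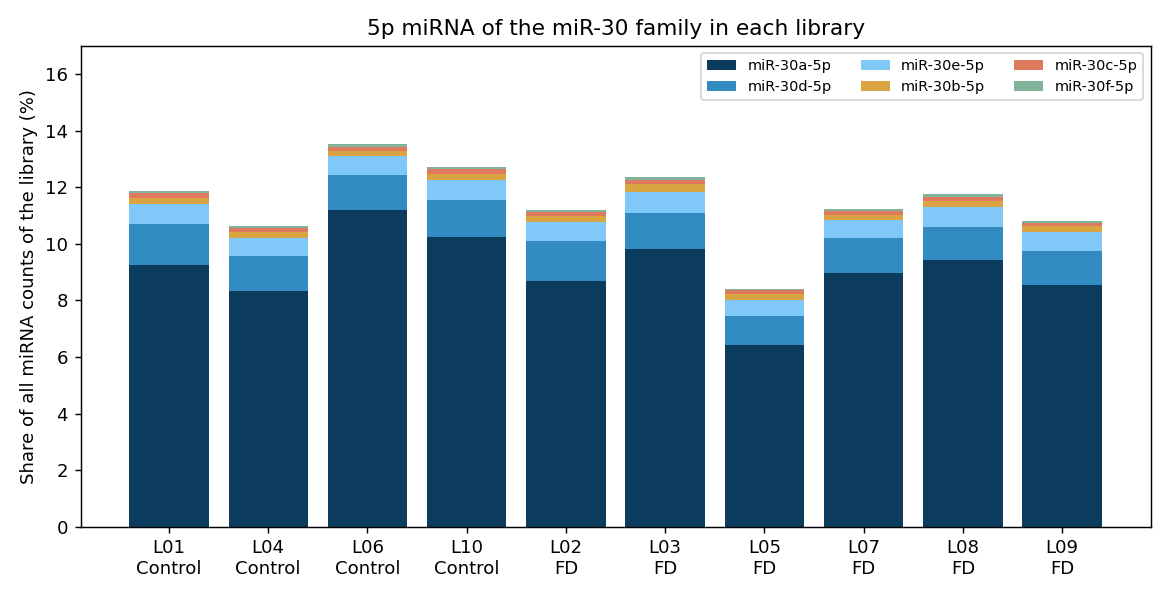
Share of all miRNA counts of each library (vertical axis, %) taken by the 6 5p miRNA of the miR-30 family, stacked by member, with 1 bar per library (4 Control, 6 FD). The bars run from 8.42% in L05 to 13.5% in L06, and miR-30a-5p makes up most of each bar.

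The order of the 5p miRNA was the same in 10 of 10 libraries: miR-30a-5p, miR-30d-5p, miR-30e-5p, miR-30b-5p, miR-30c-5p and miR-30f-5p. miR-30a-5p was the miRNA of rank 4 by mean normalized count among all 1804 and held rank 2 to 4 within single libraries. It took 76.4 to 82.9% of the 5p counts of the family. With miR-30d-5p and miR-30e-5p, its closest relatives in sequence, it took 95.4 to 97.0%. Each of the 3 genomic pairs therefore joined a 5p miRNA with more reads to another with fewer. The partners with fewer reads still ranked 42 (miR-30b-5p), 49 (miR-30c-5p) and 68 (miR-30f-5p) by mean normalized count among all 1804. The median ratio within a library was 110.5 for miR-30a-5p over miR-30f-5p, 5.82 for miR-30d-5p over miR-30b-5p and 4.55 for miR-30e-5p over miR-30c-5p.

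miR-30a-5p had 587687 (L01), 537466 (L04), 705992 (L06) and 739368 (L10) normalized counts in Control, and 429506 (L05) to 638551 (L03) in FD libraries, with a median of 565565. It was 6.12 to 9.13 times as abundant as miR-30d-5p in the same library. miR-30d-5p had 91780 (L01), 81084 (L04), 77307 (L06) and 92643 (L10) in Control, and 67068 (L05) to 91584 (L02) in FD libraries, with a median of 80776. For both miRNA the lowest library was L05 and the highest L10, and the groups overlapped. miR-30e-5p had 42968 (L01), 40777 (L04), 42274 (L06) and 51761 (L10) normalized counts in Control, and 39468 (L05) to 48852 (L03) in FD libraries, with a median of 43684. It varied least of the 12, with a coefficient of variation of 8.48% over the 10 libraries.

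The other kind began a step lower. miR-30b-5p, the member studied by overexpression in mouse mammary gland, had 14435 (L01), 13851 (L04), 11916 (L06) and 16319 (L10) normalized counts in Control, and 12026 (L07) to 16516 (L03) in FD libraries, with a median of 12722. miR-30c-5p had 10071 (L01), 8845 (L04), 7988 (L06) and 12423 (L10) in Control, and 8892 (L07) to 11076 (L03) in FD libraries, with a median of 9264. miR-30b-5p was 1.24 to 1.57 times as high as miR-30c-5p within a library, but their ranges over all libraries overlapped. They are the only neighbours in the order of the 5p miRNA that did so. miR-30f-5p was the lowest, with 5358 (L01), 5162 (L04), 5804 (L06) and 5130 (L10) in Control, and 3999.7 (L05) to 6359 (L03) in FD libraries, with a median of 4798. Levels of different miRNA carry the unequal ligation of their sequences, so the order is one of reads and not surely of molecules.

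The 3p miRNA were lower by far and had another order, with miR-30a-3p followed by miR-30e-3p, miR-30d-3p, miR-30f-3p, miR-30c-3p and miR-30b-3p in 10 of 10 libraries and no overlap between neighbours. miR-30a-3p had 5829 (L01), 4641 (L04), 5636 (L06) and 5908 (L10) normalized counts in Control, and 4955 (L09) to 6801 (L03) in FD libraries, with a median of 5757. It overlapped with the 5p miRNA miR-30f-5p and was higher than it in 7 of 10 libraries. miR-30e-3p had 2096 (L01), 1851 (L04), 1671 (L06) and 2362 (L10) in Control, and 2090 (L09) to 2569 (L05) in FD libraries, with a median of 2402. L05, the library with the lowest miR-30e-5p, thus had the highest miR-30e-3p. The rest of the 3p miRNA ran from 499.5 to 705 normalized counts for miR-30d-3p, from 149 to 276 for miR-30f-3p, from 41.1 to 102 for miR-30c-3p and from 11.8 to 28.8 for miR-30b-3p. miR-30b-3p had only 10 to 31 counts per library before normalization, and its counting error alone gives a coefficient of variation of 21.2%, against 25.1% observed.

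**Figure D2:**
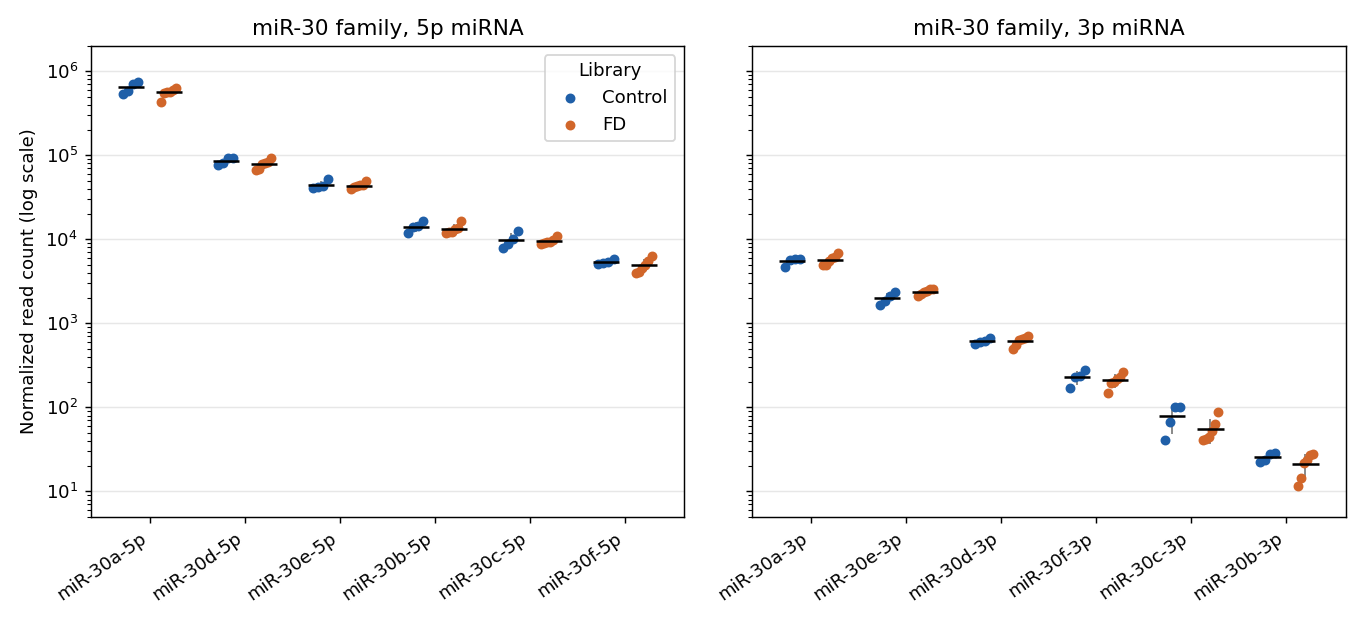
Normalized read counts (vertical axis, log scale) of the 12 miR-30 miRNA in 4 Control and 6 FD libraries, 5p on the left and 3p on the right. Points are libraries, black lines means and grey lines ± 1 SD. The levels fall over more than 4 orders from miR-30a-5p (429506 to 739368) to miR-30b-3p (11.8 to 28.8), and Control and FD points overlap for each miRNA.

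The 5p miRNA varied together over the goats to an unequal degree. Over the 10 libraries the Pearson correlation of log2(normalized count + 1) was above 0 for all 15 pairs of 5p members, from 0.15 to 0.81 with a median of 0.57, beside a median of -0.002 over the 119805 pairs of miRNA tested. These values share the libraries and their scaling factors and are given as a description. With the mean of each diet removed, the median was 0.47. The 3 genomic pairs had 0.60 (miR-30a-5p and miR-30f-5p, Spearman 0.47), 0.62 (miR-30d-5p and miR-30b-5p, Spearman 0.66) and 0.73 (miR-30e-5p and miR-30c-5p, Spearman 0.44). Among non-neighbours the highest values were 0.81 for miR-30b-5p and miR-30c-5p (Spearman 0.68) and 0.80 for miR-30b-5p and miR-30e-5p (Spearman 0.55). Some of these values rest on single goats. When the 2 libraries farthest from the median of one miRNA of the pair were left out, the non-neighbours miR-30b-5p with miR-30c-5p had 0.41 and miR-30b-5p with miR-30e-5p 0.28. The neighbours then had 0.49 (miR-30a-5p and miR-30f-5p), 0.50 (miR-30d-5p and miR-30b-5p) and -0.20 (miR-30e-5p and miR-30c-5p). Over the 15 pairs these values ran from -0.35 (miR-30c-5p and miR-30f-5p) to 0.70 (miR-30d-5p and miR-30c-5p). The close relatives miR-30a-5p and miR-30d-5p had -0.03. In these pairs the libraries left out were those farthest in the more abundant miRNA. With those farthest in miR-30c-5p left out instead, miR-30d-5p and miR-30c-5p had 0.05.

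For each 5p member, the 2 miRNA outside the family with the most similar profile over the 10 libraries were looked up among 478. miR-30d-5p was closest to miR-190a-5p (Pearson 0.90, Spearman 0.87) and miR-200b (0.87, Spearman 0.76), and miR-30a-5p to the predicted chr19_27064-3p (0.79, Spearman 0.66) and miR-200c (0.78, Spearman 0.75). miR-200b and miR-200c are epithelial miRNA. Leaving out the 2 farthest libraries gave 0.58 for both miR-200b and miR-200c. The closest to miR-30e-5p were the predicted chr27_34291-3p (0.89, Spearman 0.84) and miR-19b-3p (0.78, Spearman 0.25). The closest to miR-30c-5p were miR-20a-3p (0.76, Spearman 0.53) and miR-19a (0.75, Spearman 0.31). With the 2 farthest libraries left out, miR-19b-3p had -0.46 and miR-19a -0.15, so these likenesses rest on them. miR-30b-5p was closest to miR-33a-3p (0.82, Spearman 0.72) and miR-20a-3p (0.74, Spearman 0.62), and miR-30f-5p to miR-500-5p (0.74, Spearman 0.70) and miR-1343 (0.74, Spearman 0.73). By Spearman correlation other miRNA came first for some members, such as miR-2285ad (0.77) for miR-30a-5p, miR-532-5p (0.89) for miR-30f-5p and miR-326-3p (0.78) for miR-30c-5p. Neither miR-200c for miR-30a-5p nor miR-200b for miR-30d-5p was then among the first 2. With the diet means removed, miR-200b was among them and miR-200c was not. miR-190a-5p and chr27_34291-3p stayed first for miR-30d-5p and miR-30e-5p. The predicted chr27_34291-3p and chr19_27064-3p were scarce, with mean normalized counts of 16.7 and 26.5. Each likeness is among the highest of many and was therefore not tested.

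The arms of mir-30c did not vary together over the goats. miR-30c-3p had 67.7 (L01), 102 (L04), 101 (L06) and 41.3 (L10) normalized counts in Control, and 41.1 (L07) to 88.4 (L09) in FD libraries, with a median of 48.7. The 3 highest libraries for miR-30c-3p, L04, L06 and L09, were among the 4 lowest for miR-30c-5p, while L10 had the highest miR-30c-5p of all. The Pearson correlation of both arms was -0.57 (Spearman -0.47, and Pearson -0.51 with the 2 most extreme libraries in miR-30c-5p left out or -0.31 with those in miR-30c-3p left out). That is the lowest value of the 113 precursors with both arms tested, whose median was 0.55 and of which 12 were below 0. The other 5 precursors of the family had 0.18 (mir-30e) to 0.69 (mir-30d), but for mir-30e the Spearman correlation was -0.04 and the Pearson value with 2 libraries left out -0.10, and mir-30d then had 0.12. miR-30c-3p had 38 to 105 counts per library, which gives a counting error of 12.7% against an observed coefficient of variation of 38.3%. Among the members its strongest correlation was an inverse one with miR-30e-3p (Pearson -0.85, Spearman -0.79, and Pearson -0.68 with the 2 most extreme libraries in miR-30c-3p left out). It varied with miR-30f-3p (Pearson 0.68, Spearman 0.70), from which it differs at 3 of 21 bases. How the counting treated reads that match both miR-30c-3p and miR-30f-3p was not given in the sources used here.

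**Figure D3:**
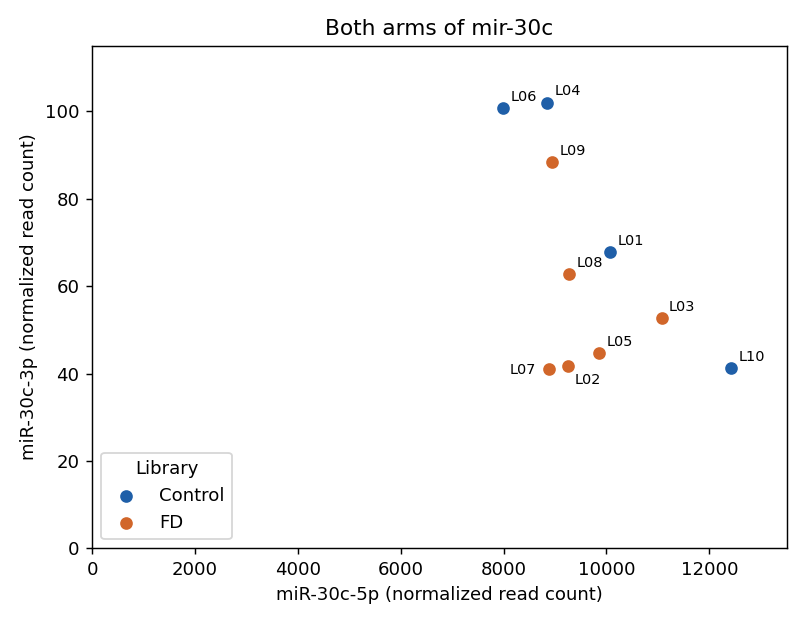
Normalized read counts of miR-30c-5p (horizontal axis) and miR-30c-3p (vertical axis), 1 point per library, Control and FD in separate colours. L04, L06 and L09 stand high on miR-30c-3p and low on miR-30c-5p, and L10 the other way round.

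None of the 12 miR-30 miRNA was called between the diets. All 6 5p miRNA had a log2 fold change (FD over Control) below 0, with a median of -0.12, but miR-30c-5p stood at 0.03 without Control library L10 and miR-30e-5p at 0.0026 without FD library L05. Among all 490 miRNA tested, 245 (50%) were below 0, with a median of -0.0004. The 5p miRNA come from the same libraries and varied together to an unequal degree, so they do not count as 6 separate observations. By the quasi-likelihood test of edgeR, adjusted after Benjamini-Hochberg over the 490 miRNA with a threshold of 0.1, 0 of the 12 members passed, as 0 of all miRNA tested did (0%). At an unadjusted p under 0.05 the count was also 0 of 12, beside 77 of 490 (15.7%), of which 40 were lower (8.16%) and 37 higher (7.55%) in FD libraries. DESeq2's Wald test called 0 of the 12 and 26 of the 490 (5.31%), with an unadjusted p under 0.05 for 1 member and for 84 of the 490 (17.1%). limma-voom called 0 of the 12 and 0 of the 490, and had an unadjusted p under 0.05 for 0 of the 12 beside 12.2% of all. The normalized counts of Control and FD did not overlap for 0 of the 12 members and for 2.24% of all miRNA tested.

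The intervals show how large a change these libraries leave room for. In the fit with all libraries and the main scaling (TMM), the 95% intervals of the 6 5p miRNA all lay between -0.50 and 0.22 on the log2 scale. That is between 0.705 and 1.16 times the Control level. Other scalings and left-out libraries moved the fitted values, so these bounds hold for that fit alone. miR-30a-5p had 642628 ± 95658 normalized counts (SD, n = 4) with feed and 558886 ± 70520 (SD, n = 6) without. Its log2 fold change was -0.22 ± 0.13 (standard error, edgeR adjusted p = 0.431), and 1 of 6 FD values, that of L05, was below every Control value. Without L05 it was -0.14, and without L04 -0.32 (edgeR adjusted p = 0.333). miR-30f-5p had -0.14 (standard error 0.14), with 4 of 6 FD values under the lowest Control value and 1 over the highest. The values were -0.14 for miR-30d-5p, -0.10 for miR-30b-5p, -0.06 for miR-30c-5p and -0.04 for miR-30e-5p, with standard errors of 0.10 to 0.13. Without L05 the values were -0.08 for miR-30d-5p, -0.06 for miR-30b-5p and -0.07 for miR-30f-5p. The members' standard errors had a median of 0.13, against 0.22 over all miRNA tested. In a piece of whole gland, fewer cells of a type and less of a miRNA in each cell cannot be told apart.

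Among the 3p miRNA, miR-30e-3p had the smallest p in edgeR's test, but not with upper-quartile scaling or without some libraries, such as L10, where miR-30c-3p had a smaller one. Its level was 1995 ± 300.2 normalized counts (SD, n = 4) with feed and 2378 ± 185 (SD, n = 6) without, and 3 of 6 FD values lay over the highest Control value. The log2 fold change was 0.24 ± 0.13 (standard error, edgeR adjusted p = 0.397). Before adjustment its p was 0.0866 in edgeR, and DESeq2's Wald test gave 0.0456 with an adjusted p of 0.275. The fitted log2 value of miR-30c-3p was -0.51 ± 0.29 (standard error, edgeR adjusted p = 0.427), with a 95% interval from -1.15 to 0.13. It was -0.34 without L06, -0.71 without L09 and -0.77 without L10 (edgeR adjusted p = 0.207), and without L04 it was no larger than that of miR-30b-3p (both -0.38). Its level spanned 41.3 to 102 in Control and 41.1 to 88.4 in FD libraries. The other values were 0.04 for miR-30a-3p, -0.0053 for miR-30d-3p, -0.14 for miR-30f-3p (-0.0089 without L06, -0.30 without L10) and -0.30 for miR-30b-3p (-0.17 without L05). Only Control library L10 brought miR-30b-3p past the filter (highest normalized count above 28), so its value below 0 is not independent of the filter. miR-30a-3p stood at -0.022 with upper-quartile scaling, at -0.05 without Control library L04 and at -0.03 without FD library L08, and miR-30d-3p was above 0 with library totals as scaling (0.024), without Control library L01 (0.02) and without FD library L05 (0.04).

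**Figure D4:**
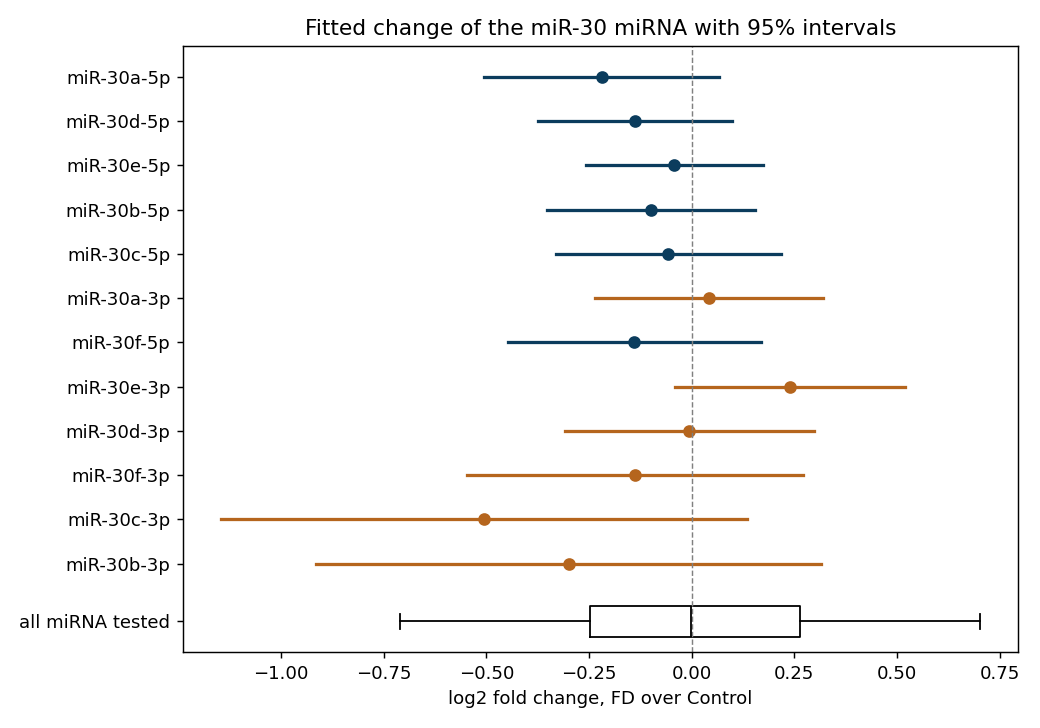
Fitted log2 fold change, FD over Control (horizontal axis), of each miR-30 miRNA with its 95% interval (blue for 5p, brown for 3p), and the distribution over the 490 miRNA tested (box from the lower to the upper quartile, whiskers at the percentiles 5 and 95). Each interval of the 12 members includes 0, and miR-30c-3p and miR-30b-3p have the widest.

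Markers of other cells were set beside these values. The list of myeloid and lymphoid miRNA took 0.150 to 0.247% of the counts in Control and 0.184 to 0.401% in FD libraries, and 4 of its 5 tested members were higher at an unadjusted p under 0.05 in edgeR's test (7.55% of all miRNA tested), among them miR-223-3p with a log2 fold change of 1.15. The others were miR-223-5p, the other arm of the same precursor, miR-150 with 0.87 and miR-146a with 0.67. The remaining member, miR-155-5p, was the most abundant of the list and had -0.12 (unadjusted p = 0.574 in edgeR's test). The endothelial miRNA miR-126-3p and miR-126-5p, with 0.37 and 0.31, both had an unadjusted p under 0.05, and so did 1 of the 3 erythroid miRNA, miR-451-5p with 0.46. Of the 9 tested epithelial miRNA, 5 were below 0 and 4 above, with a median of -0.11. Those below 0 were miR-200a, miR-200b, miR-200c, miR-141 and miR-429, and 2 of them, miR-200b and miR-429 with -0.34 each, had an unadjusted p under 0.05 (8.16% of all miRNA tested were lower at that level). The 3 most abundant epithelial miRNA were miR-141 with a log2 fold change of -0.11, miR-200b, and miR-205-5p with 0.41. The stromal list had a median of 0.25 over 4 tested miRNA, of which 3 were above 0 and 1, miR-145-5p with -0.15, below. The erythroid list had a median of 0.33 over 3 miRNA, and the 2 tested muscle miRNA had 0.08. No miRNA of these lists had an adjusted p under 0.1 in edgeR's test with the filter, whereas DESeq2 called miR-126-3p, miR-223-3p and miR-223-5p, and edgeR without a filter miR-223-3p. The part of cell makeup in the values of the miR-30 family was not tested.

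The balance of the arms was compared next, because a ratio within 1 library needs no scaling between libraries. The 5p miRNA exceeded the 3p miRNA in each library for all 6 precursors. The ratio was highest for mir-30b, with 465 to 991 and a median of 533, and lowest for mir-30e, with 15.4 to 25.3 and a median of 20.6. The medians of the others were 178 for mir-30c, 132 for mir-30d, 102 for mir-30a and 23.2 for mir-30f. Over the 113 precursors the median distance between the arms was 3.65 on the log2 scale, below the mean of each miR-30 precursor (4.31 to 9.22). mir-30d was among the most even of all, with a standard deviation of 0.125 on the log2 scale over the 10 libraries, which is rank 3 from the lowest of 113. mir-30c was among the least even, with 0.653 and rank 6 from the highest.

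Between the diets, 0 of the 6 precursors passed the threshold of 0.1 in limma's test adjusted over all 113 precursors, of which 1 did (0.885%). For mir-30a the log2 ratio of 5p over 3p was 6.66 (L01), 6.86 (L04), 6.97 (L06) and 6.97 (L10) in Control, and 6.44 (L05) to 6.85 (L09) in FD libraries, with a median of 6.58. Of the FD values 4 of 6 lay under the lowest Control value. The difference was -0.25 (FD minus Control, 95% interval -0.53 to 0.02, adjusted p = 0.572 from limma). For mir-30e the log2 ratio was 4.36 (L01), 4.46 (L04), 4.66 (L06) and 4.45 (L10) in Control, and 3.94 (L05) to 4.42 (L09) in FD libraries, with a median of 4.19, and again 4 of 6 FD values lay under the lowest Control value. Its difference was -0.28 (95% interval -0.57 to 0.0058, adjusted p = 0.572 from limma). Taken singly and with no adjustment, the exact two-sided permutation test gave p = 0.0381 for mir-30a and p = 0.0286 for mir-30e. Adjusted over all 113 precursors, the values of the exact test were 0.478 and 0.404. The share of all precursors under 0.05 in the exact test is not given here, and the shares below come from limma. In limma's test 0 of the 6 had an unadjusted p under 0.05, beside 6.19% of all precursors in either direction and 2.65% with a lower ratio in FD libraries. For mir-30d, too, 4 of 6 FD values lay under the lowest Control value. Its difference was -0.13 (-0.07 without L10), and the exact test gave an unadjusted p = 0.124. The share of the 113 precursors with as many FD values under the lowest Control value is not given here. The differences were 0.26 for mir-30b (0.14 without L05) and 0.44 for mir-30c. That of mir-30c rested on single Control libraries, with 0.19 without L06, 0.24 without L04 and 0.83 without L10 (adjusted p = 0.272 from limma). That of mir-30f, -0.02, was above 0 without Control library L10 (0.10) and without FD libraries L08 (0.0073) or L09 (0.05).

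**Figure D5:**
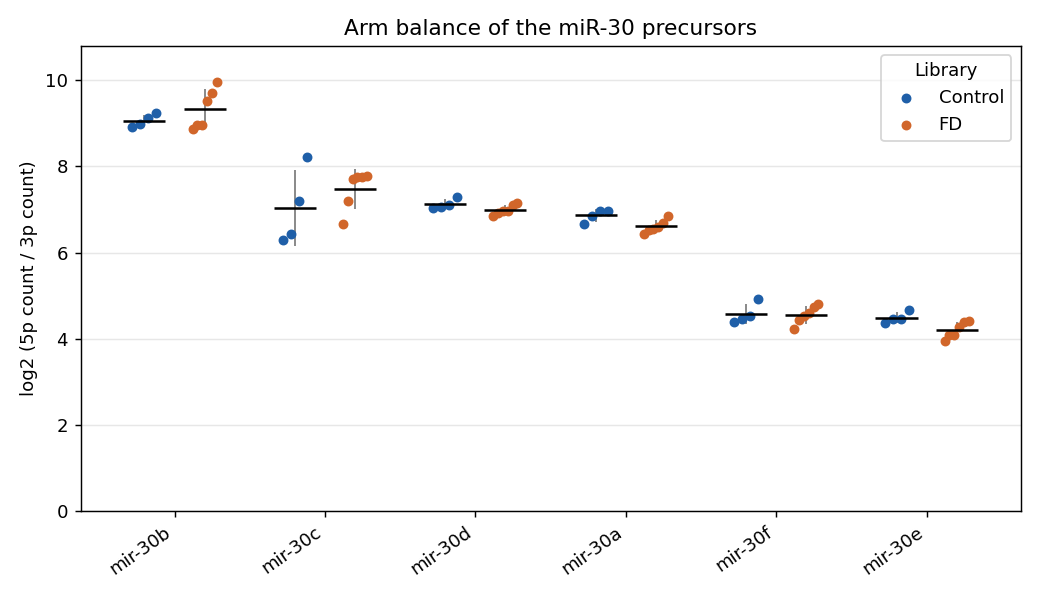
log2 ratio of 5p over 3p counts (vertical axis) of the 6 miR-30 precursors in 4 Control and 6 FD libraries. Points are libraries, black lines means and grey lines ± 1 SD. mir-30a, mir-30d and mir-30e each have 4 of 6 FD libraries below the lowest Control library, and mir-30c has the widest spread. None of the 6 passed the threshold between the diets.

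The seed of the 5p miRNA was carried by 1 more miRNA of the tables, a predicted one. Its sequence is shown because it begins like a member of the family.
chr3_3988-5p: tGTAAACAtccttgcctgt
It shares its first 14 bases with miR-30e-5p and has 19 bases in all. Its predicted precursor was placed on chromosome 3 of CHIR_1.0 from 82703209 to 82703264 on the plus strand, with a miRDeep2 score of 0.3 and no significant randfold result (a test of whether a hairpin is more stable than shuffled sequence). An annotation of that build was not used here. It had 2 to 16 counts per library, with a median of 6, against 364997 to 927804 counts of miR-30a-5p. Another predicted miRNA, chr17_24032-5p, has the seed of miR-30b-3p and miR-30f-3p and had 5 counts in all, in 3 of 10 libraries.

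The 15 other miRNA listed as known from fat cells were all tested (miR-155-5p is on the leukocyte list too). Adjusted p-values were under 0.1 for 0 of them in edgeR's test and unadjusted p under 0.05 for 1, miR-130a-3p, with a log2 fold change of 0.44 (adjusted p = 0.313). There were 8 above 0 and 7 below, with a median of 0.06. The most abundant, miR-148a-3p, miR-143-3p and miR-26a-5p, had log2 fold changes of -0.31, 0.11 and 0.23.

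Several members lie 1 base apart, so a reading error in an abundant miRNA could have been counted for its relative. miR-30d-5p had 11.0 to 16.4% of the counts of miR-30a-5p in the same library and miR-30e-5p 5.99 to 9.19%. These ratios varied between goats, and the part of such errors in them was not tested.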

How the data were processed

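Small RNA libraries from 10 goats (4 Control, 6 FD) were used, with the groups taken from the treatment label. The counts are the reads per mature miRNA deposited by the authors, who removed adapters with Cutadapt, kept reads of 17 to 28 nt, mapped them to goat genome CHIR_1.0 and counted them with miRDeep2 on known goat precursors (miRBase version 21) and predicted ones. The submitters' processing notes name CASAVA 1.8.2. The deposited columns of normalized values were not used. The miRDeep2 score of a predicted precursor is the authors' value over the pooled reads. No molecular identifiers are described.

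For normalized counts, each library was scaled by its median-of-ratios size factor (DESeq2) over 1804 miRNA. The 490 miRNA with a highest normalized count above 28 were tested with edgeR's quasi-likelihood test (TMM, two-sided, no covariates, Benjamini-Hochberg, threshold 0.1); a standard error is the log2 fold change divided by the square root of F. All 12 members passed this filter, but miR-30b-3p did so only through Control library L10, at 28.8, against 27.8 in the highest FD library. Arm balance was log2((5p + 0.5)/(3p + 0.5)), tested with limma over 113 precursors. Precursors whose listed arms share 15 or more bases were left out, a rule chosen after 1 such precursor was seen in the data. Both tests were run on simulated data, where the changes put in were larger than those fitted for the members. The power for changes as small as the fitted ones was not tested. The members, lists and tests were chosen with earlier results of these data known. Named are the 12 members, the 2 miRNA most correlated with each 5p member and any miRNA sharing a 5p seed. Of the epithelial and fat cell lists the most abundant 3 are named. Others named, also those of the other lists, were chosen after their values were seen. List members missing from the tables were not analysed here. Fits were run with limma 3.58.1, edgeR 4.0.16 and DESeq2 1.42.0 under R 4.3.3, and the rest with pandas 2.3.3, scipy 1.17.1 and numpy 2.4.6 under Python 3.11.15, which also drew the plots (matplotlib 3.10.9).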

Additional observations from a re-analysis of the deposited data

How the results depend on the processing

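No miR-30 miRNA and no miR-30 precursor passed its threshold under any alternative run. Over all miRNA the diet comparison called 26 with DESeq2 and 5 with no filter against 0, and 0 to 1 with 1 library left out. The arm comparison called 2 with a pseudocount of 5, 0 with no filter and 0 with the exact permutation test against 1, and 0 to 2 with 1 library left out. Of 213 alternative log2 fold changes of members 11 changed sign: miR-30a-3p to -0.022 (upper quartile) and, with 1 library left out, from -0.054 (L04) to 0.10; miR-30d-3p to 0.0101 (DESeq2), 0.0107 (its size factors in edgeR), 0.024 (library totals), 0.015 (no filter) and, with 1 left out, from -0.067 (L10) to 0.041 (L05). With 1 left out, miR-30c-5p ran from -0.13 (L06) to 0.030 (L10) and miR-30e-5p from -0.10 (L04) to 0.0026 (L05). Of 84 arm differences 3 did, all of mir-30f, which ran from -0.078 (L06) to 0.096 (L10) with 1 left out. The cause was not tested. Without the 10 most abundant miRNA in the denominator (family members kept), the mean share of the 5p miRNA was 32.5% in Control and 28.8% in FD libraries. miR-30b-3p, with 10 to 31 counts per library, was below the filter and not tested without L07, L08 or L10. The size factors were estimated anew in each such run, so the normalized value of L10 moved without L07 or L08. No paired analysis was possible because the labels give no number that links Control and FD goats.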
